A study of Mus musculus with 8 samples.

Results

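Ctgf, Cyr61, F3, Axl, Nt5e, Fjx1, Nuak2, Amotl1, Ajuba and Myof are 10 transcripts known as direct targets of the transcriptional co-activators YAP and TAZ. They were taken by gene symbol from a table of read counts for 13607 genes, and all 10 were present and tested. The counts come from polyA RNA sequencing of 8 libraries of cultured mouse cells, in 4 groups of 2 replicates named A and B. Every group was C57BL/6J with floxed Yap and Taz alleles (Yapf/f;Tazf/f), the controls included, and was grown in DMEM-F12 with N-2 supplement, EGF and bFGF. The transformed cells had been transduced with lentiviruses for doxycycline-inducible HER2CA, a constitutively active HER2 (a receptor tyrosine kinase), for rtTA, the activator that doxycycline switches on, and for CreERT2, a Cre recombinase that 4-hydroxytamoxifen (4OH-TAM) switches on. Gliomaspheres were passage P1 cultures of these cells, grown in suspension under doxycycline and harvested 3 weeks into the experiment. Libraries labelled 4OH-TAM came from HER2CA astrocytes given both doxycycline and 1 µM 4OH-TAM until day 15, and are described as YAP/TAZ knockout. HER2CA day 15 astrocytes had doxycycline and no 4OH-TAM. Control astrocytes were not transformed and had no doxycycline. The labels list DMSO for gliomaspheres and HER2CA day 15, whereas the treatment protocol calls HER2CA cells without 4OH-TAM untreated. The sources used here do not give whether controls carried the constructs or whether replicates were separate cultures. The p-values therefore reflect the spread of these 8 libraries, part of which may be technical. Doxycycline and HER2CA cannot be told apart in any comparison with controls.

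YAP and TAZ carry no DNA-binding domain and act mainly through the TEAD transcription factors, often at sites shared with AP-1 factors. The kinases LATS1 and LATS2 of the Hippo pathway phosphorylate them and keep them out of the nucleus, and cell spreading, stiff surroundings and attachment to a substrate favour their nuclear form. Targets such as Ctgf and Cyr61 are used as readouts of this activity, and several targets, Amotl1, Ajuba and Nuak2 among them, encode proteins that act back on the pathway. In astrocytes and glioma, YAP and TAZ are known for their part in proliferation and in cell identity.

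The promoters show which members carry the short sequence that TEAD factors read close to their annotated start. RefSeq windows of 250 bases before to 50 bases after the start, on GRCm38.p6, were matched for 7 of the 10 members, all but Ctgf, Nuak2 and Fjx1. The TEAD core GGAATG, searched on both strands and so also as CATTCC, was found in 3 of these 7 windows, against 14.7% of all 32851 promoters. It lay at −103 to −98 from the start in Cyr61, at −186 to −181 and −164 to −159 in Ajuba, and at −233 to −228 in Axl. The AP-1 sequence TGACTCA, with its reverse complement TGAGTCA, was found in 1 of the 7, at −135 to −129 in F3, against 5.2% of all promoters. The CArG box, which serum response factor reads, was found in 0 of the 7, against 1.63% of all promoters. The windows of Amotl1, Myof and Nt5e held none of the 3 motifs. The Amotl1 window (chr9:14614951-14615250) lies at a RefSeq start inside the gene span given below, whose 5′ end at 14645056 was not searched. The Nt5e window (chr9:88327359-88327658) also lies inside the span given for that gene. No TEAD and AP-1 match overlapped, since no window held both. These are matches of letters, not measured binding sites, and distal enhancers were not searched. The 4 windows with a match are printed 5′ to 3′ on the gene's own strand, with the TEAD core in capitals in the first 3 and the AP-1 sequence in capitals in F3. Cyr61 is chr3:145649936-145650235 on the minus strand, Axl is chr7:25788684-25788983 on the minus strand, Ajuba is chr14:54577612-54577911 on the minus strand, and F3 is chr3:121723287-121723586 on the plus strand.
Cyr61: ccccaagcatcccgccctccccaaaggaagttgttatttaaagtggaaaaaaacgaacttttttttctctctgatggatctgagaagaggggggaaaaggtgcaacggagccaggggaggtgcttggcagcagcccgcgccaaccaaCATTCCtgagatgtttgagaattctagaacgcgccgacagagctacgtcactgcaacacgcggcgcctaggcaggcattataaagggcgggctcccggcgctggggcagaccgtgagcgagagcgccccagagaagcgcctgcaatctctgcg
Axl: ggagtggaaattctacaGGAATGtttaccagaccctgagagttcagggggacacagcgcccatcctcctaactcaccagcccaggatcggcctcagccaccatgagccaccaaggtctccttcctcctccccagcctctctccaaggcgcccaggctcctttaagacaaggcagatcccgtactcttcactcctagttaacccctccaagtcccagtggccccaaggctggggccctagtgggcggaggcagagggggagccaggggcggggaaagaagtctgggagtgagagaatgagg
Ajuba: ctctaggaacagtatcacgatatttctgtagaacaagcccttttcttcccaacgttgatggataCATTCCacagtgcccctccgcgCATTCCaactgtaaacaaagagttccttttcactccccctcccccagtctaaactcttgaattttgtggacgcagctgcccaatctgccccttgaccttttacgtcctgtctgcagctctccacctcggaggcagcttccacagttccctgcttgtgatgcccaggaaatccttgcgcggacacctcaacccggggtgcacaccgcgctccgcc
F3: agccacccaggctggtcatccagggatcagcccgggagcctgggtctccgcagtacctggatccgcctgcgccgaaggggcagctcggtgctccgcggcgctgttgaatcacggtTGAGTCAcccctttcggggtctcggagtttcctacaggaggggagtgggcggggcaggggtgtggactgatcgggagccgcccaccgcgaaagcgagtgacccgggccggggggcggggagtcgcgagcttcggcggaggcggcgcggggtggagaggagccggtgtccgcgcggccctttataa

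The floxed genes were examined first, because the labels name a knockout. Yap1 had 107 and 103 CPM (read counts relative to a TMM-scaled library size) in libraries labelled 4OH-TAM, against 101 and 103 CPM in HER2CA day 15. That difference was 0.04 on the log2 scale (SE 0.07) and did not pass edgeR's quasi-likelihood test (Benjamini-Hochberg adjusted p = 0.569), and with upper-quartile scaling Yap1 was higher in libraries labelled 4OH-TAM, by 0.25 (adjusted p = 0.00352). Wwtr1, which encodes TAZ, had 123 and 122 CPM in libraries labelled 4OH-TAM, against 194 and 210 CPM in HER2CA day 15, a log2 difference of −0.73 (adjusted p = 1.25e-07), and −0.61 with no scaling factors (adjusted p = 0.0738). The whole-transcript level of Yap1 was thus not lower in libraries labelled 4OH-TAM than in HER2CA day 15. Relative to controls, Yap1 (log2 −0.42) and Wwtr1 (−0.50) were lower in libraries labelled 4OH-TAM. In HER2CA day 15, Yap1 was lower than in controls too (−0.46), and Wwtr1 was higher (0.23). Each of these calls relative to controls was lost with no scaling factors. That setting also lowered the share of all genes called lower between the day 15 groups, to 15.0% from 39.7%. Each gene's spread is estimated over all 8 libraries, so libraries outside a comparison also bear on its calls. The sources used here do not name the floxed exons, and a count over the whole gene includes any exons that Cre leaves. The values of Yap1 and Wwtr1 therefore do not measure the deletion.

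Depth lay between 15517708 and 28231426 counts per library. Gliomaspheres B, the shallowest, stood apart, with 36.1% of its counts in the ribosomal RNA gene Rn45s, against 0.984% to 2.92% in the other 7 libraries. The results for the members without that library are in the closing section. All 10 astrocyte markers were measured in every group. Their summed level was 11281 and 11762 CPM in gliomaspheres, 11987 and 12456 CPM in libraries labelled 4OH-TAM, 2638 and 2711 CPM in HER2CA day 15, with 6002 and 7031 CPM in controls.

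The 10 members did not share one pattern across the groups. The highest group was libraries labelled 4OH-TAM for 5 members (Ctgf, F3, Axl, Nt5e and Nuak2), gliomaspheres for 2 (Amotl1 and Fjx1), controls for 2 (Cyr61 and Ajuba) and HER2CA day 15 for 1 (Myof). The lowest was HER2CA day 15 for 6 members and gliomaspheres for 4 (Cyr61, Ajuba, Myof and Nuak2). Ctgf spanned 22.6-fold between its highest and lowest group mean and Cyr61 12.8-fold, while Nuak2 spanned 2.06-fold. Values per library are CPM, given for A and then B, and differences between groups are log2 fold changes from edgeR.

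**Figure D1:**
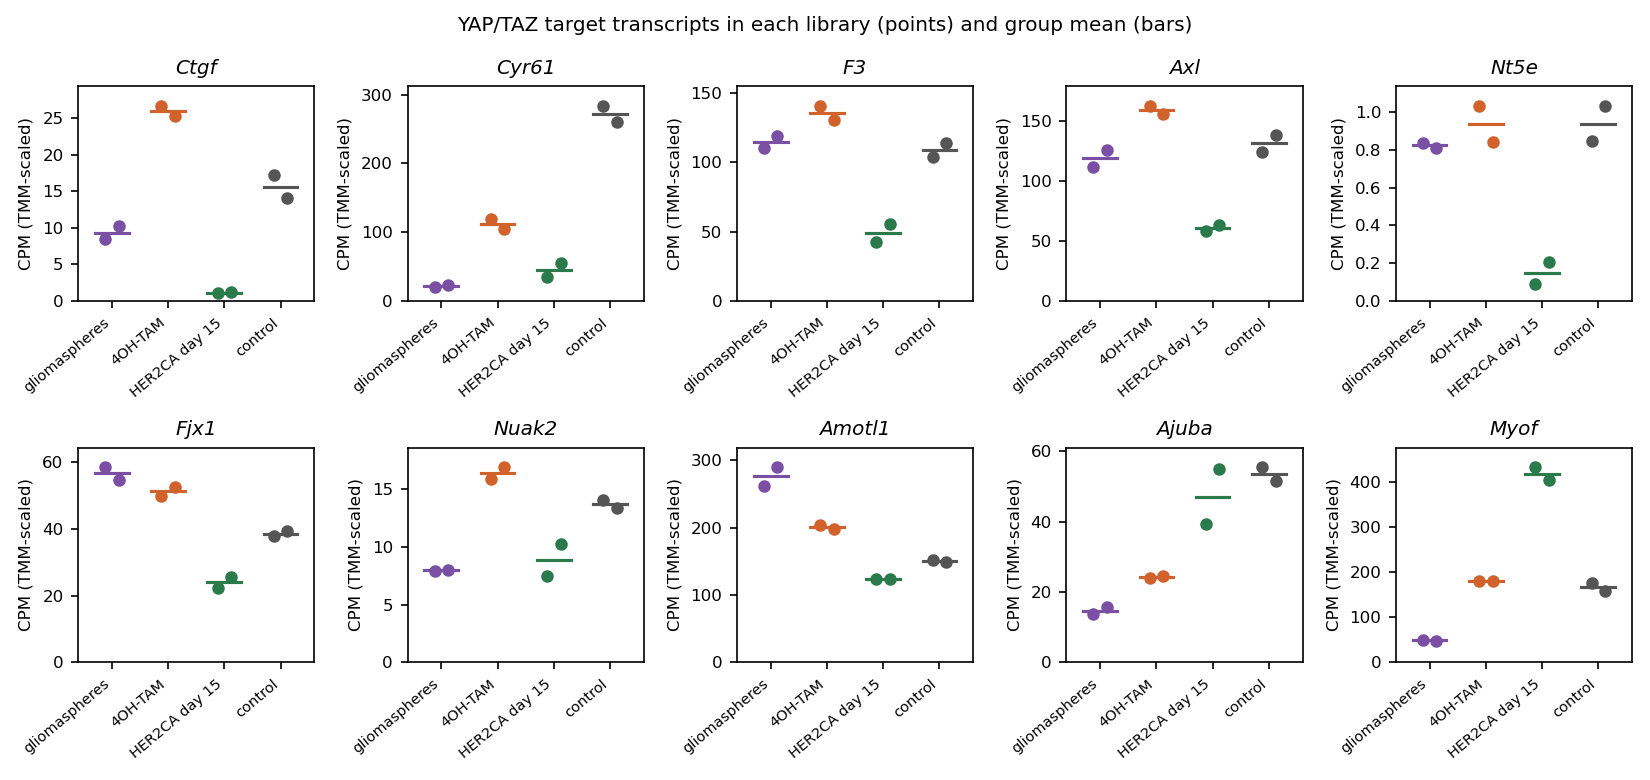
CPM of each member (vertical axis, linear, from 0) in the 8 libraries, by group (horizontal axis); points are libraries A and B and bars are the means of 2. Ctgf sits between 1.05 and 1.24 CPM in HER2CA day 15, whereas Myof is highest there, at 403 and 433 CPM.

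Ctgf (Ccn2, chr10:24595442-24598683, plus strand, GRCm38) and Cyr61 (Ccn1, chr3:145646976-145649981, minus strand) encode secreted matricellular proteins of the CCN family, which bind integrins and are the most used YAP/TAZ readouts. Ctgf had 26.7 and 25.2 CPM in libraries labelled 4OH-TAM, against 1.05 and 1.24 CPM in HER2CA day 15. It had 8.42 and 10.2 CPM in gliomaspheres, against 17.2 and 14.1 CPM in controls. The 4 groups did not overlap, and libraries labelled 4OH-TAM were the highest and HER2CA day 15 the lowest. Ctgf was 22.3-fold higher in libraries labelled 4OH-TAM than in HER2CA day 15 (log2 4.48, SE 0.17, edgeR adjusted p = 7.62e-12), and lower in HER2CA day 15 than in controls (log2 −3.75, SE 0.18, adjusted p = 8.77e-11). Of its 2861 exonic bases, 23.2% also lie in exons of Gm15270 on the opposite strand, and without a stated strand setting of the counting, reads of these genes cannot be told apart there. The other 9 members share no exonic base with another annotated gene.

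Cyr61 had 118 and 105 CPM in libraries labelled 4OH-TAM, against 34.9 and 54.5 CPM in HER2CA day 15. It had 19.5 and 22.9 CPM in gliomaspheres, against 284 and 260.0 CPM in controls. Here controls were highest and gliomaspheres lowest, and no groups overlapped. Cyr61 rose in libraries labelled 4OH-TAM relative to HER2CA day 15 by 1.31 (SE 0.14, edgeR adjusted p = 6.32e-07), as Ctgf did. Relative to controls the members of this pair parted: in libraries labelled 4OH-TAM Ctgf was higher, by 0.73 (SE 0.12, adjusted p = 1.16e-04), and Cyr61 lower (log2 −1.29, SE 0.14, adjusted p = 1.62e-06). They also parted between gliomaspheres and HER2CA day 15, where Ctgf was 7.82-fold higher (log2 2.97, adjusted p = 2.46e-09) and Cyr61 fell by 1.11 (adjusted p = 1.69e-05).

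F3 (chr3:121723537-121735048, plus strand) encodes tissue factor, the cell-surface receptor that starts coagulation. It had 141 and 131 CPM in libraries labelled 4OH-TAM, against 42.3 and 55.2 CPM in HER2CA day 15. Gliomaspheres had 110.3 and 119 CPM, against 104 and 114 CPM in controls, so gliomaspheres and controls overlapped. F3 was higher in libraries labelled 4OH-TAM than in HER2CA day 15 by 1.47 (SE 0.10, edgeR adjusted p = 4.54e-09). HER2CA day 15 was below controls (log2 −1.16, SE 0.10, adjusted p = 8.02e-08).

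Axl (chr7:25757273-25788705, minus strand) encodes a receptor tyrosine kinase of the TAM family, named for Tyro3, Axl and Mertk and unrelated to tamoxifen, that binds GAS6. It had 163 and 155 CPM in libraries labelled 4OH-TAM, against 58.1 and 63.0 CPM in HER2CA day 15. It had 112 and 126 CPM in gliomaspheres, against 124 and 138 CPM in controls. Only HER2CA day 15 lay well below the others (log2 −1.11 relative to controls, SE 0.08, edgeR adjusted p = 9.5e-09), while gliomaspheres and controls overlapped (log2 −0.15, adjusted p = 0.122). Without gliomaspheres B that difference passed the test (log2 −0.24, edgeR adjusted p = 0.0236). Libraries labelled 4OH-TAM exceeded HER2CA day 15 by 1.39 (SE 0.08, adjusted p = 6.9e-10).

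Nt5e (chr9:88327197-88372092, plus strand) encodes CD73, the surface enzyme that turns AMP into adenosine. It was the scarcest member, with 27 and 22 counts (1.03 and 0.842 CPM) in libraries labelled 4OH-TAM, against 2 and 6 counts (0.0917 and 0.207 CPM) in HER2CA day 15. Gliomaspheres had 20 and 8 counts (0.838 and 0.809 CPM), against 22 and 25 counts (0.845 and 1.03 CPM) in controls. HER2CA day 15 stood below the other 3 groups, whose values lay close together. The fitted difference between libraries labelled 4OH-TAM and HER2CA day 15 was 2.54 (SE 0.45, edgeR adjusted p = 9.08e-05) and 3.28 without HER2CA day 15 B. Relative to controls, HER2CA day 15 was lower (log2 −2.53, SE 0.45, adjusted p = 1.1e-04), or −3.27 without HER2CA day 15 B.

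Fjx1 (chr2:102449366-102452499, minus strand) encodes a four-jointed kinase, which in Drosophila phosphorylates the cadherins Fat and Dachsous. It had 49.9 and 52.8 CPM in libraries labelled 4OH-TAM, against 22.5 and 25.5 CPM in HER2CA day 15. It had 58.6 and 54.7 CPM in gliomaspheres, against 37.8 and 39.5 CPM in controls. Fjx1 was higher in libraries labelled 4OH-TAM than in HER2CA day 15 by 1.09 (SE 0.09, adjusted p = 1.66e-08). HER2CA day 15 was again lowest, below controls (log2 −0.68, SE 0.09, edgeR adjusted p = 4.02e-06), and gliomaspheres were above controls by 0.56 (SE 0.09, adjusted p = 4.29e-05).

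Nuak2 (chr1:132316126-132333488, plus strand) encodes an AMPK-related kinase that acts on actomyosin and on LATS. It had 15.9 and 16.9 CPM in libraries labelled 4OH-TAM, against 7.47 and 10.2 CPM in HER2CA day 15. It had 7.96 and 7.99 CPM in gliomaspheres, against 14.1 and 13.4 CPM in controls. The groups fell into a higher pair, libraries labelled 4OH-TAM and controls, and a lower pair, gliomaspheres and HER2CA day 15. Within each pair the difference did not pass edgeR's test (adjusted p = 0.105 and 0.346), though that of gliomaspheres and HER2CA day 15 did without HER2CA day 15 A (−0.36, adjusted p = 0.0433). Between the day 15 groups Nuak2 rose by 0.88 in libraries labelled 4OH-TAM (SE 0.14, adjusted p = 2.85e-05).

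Amotl1 (chr9:14541966-14645056, minus strand) encodes angiomotin-like 1, a junctional scaffold that binds YAP and TAZ and holds them in the cytoplasm. It had 204 and 198 CPM in libraries labelled 4OH-TAM, against 124 and 124 CPM in HER2CA day 15. It had 263 and 290.1 CPM in gliomaspheres, against 152 and 149.6 CPM in controls. All 4 groups were apart, with gliomaspheres highest, above controls by 0.87 (SE 0.07, edgeR adjusted p = 4.55e-08). Libraries labelled 4OH-TAM exceeded HER2CA day 15 by 0.69 (SE 0.07, adjusted p = 2.44e-07). HER2CA day 15 was the lowest, below controls (log2 −0.28, SE 0.07, adjusted p = 0.0019), a call lost with no scaling factors (−0.33, adjusted p = 0.364).

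Ajuba (chr14:54567472-54577558, minus strand) encodes a LIM-domain protein that binds LATS kinases at junctions. It had 23.9 and 24.4 CPM in libraries labelled 4OH-TAM, against 39.4 and 54.9 CPM in HER2CA day 15. It had 13.8 and 15.7 CPM in gliomaspheres, against 55.6 and 51.5 CPM in controls. Ajuba was thus lower in libraries labelled 4OH-TAM than in HER2CA day 15 (log2 −0.97, SE 0.12, edgeR adjusted p = 3.67e-06), where most members were higher. HER2CA day 15 and controls overlapped, and their difference of −0.18 did not pass the test (SE 0.12, adjusted p = 0.186). It passed without HER2CA day 15 B (−0.44, adjusted p = 0.00242) and with upper-quartile scaling (−0.33, adjusted p = 0.0155).

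Myof (chr19:37899036-38043577, minus strand) encodes myoferlin, a ferlin that works in membrane repair and in the recycling of receptors. It had 180.5 and 180.6 CPM in libraries labelled 4OH-TAM, against 433 and 403 CPM in HER2CA day 15. It had 50.2 and 46.8 CPM in gliomaspheres, against 175 and 158 CPM in controls. Myof was highest in HER2CA day 15, where Ctgf was lowest, and there it exceeded controls by 1.33 (SE 0.07, edgeR adjusted p = 4.38e-10). It fell in libraries labelled 4OH-TAM relative to HER2CA day 15 (log2 −1.21, SE 0.07, adjusted p = 1.03e-09). Gliomaspheres were 8.57-fold below HER2CA day 15 (log2 −3.10, adjusted p = 9.4e-14). The order of the other 3 groups was that of Ctgf, with libraries labelled 4OH-TAM above controls and gliomaspheres lowest. The difference of 0.12 between libraries labelled 4OH-TAM and controls did not pass the test (adjusted p = 0.191).

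Between the 2 groups at day 15, 8 members rose and 2 (Ajuba and Myof) fell in libraries labelled 4OH-TAM relative to HER2CA day 15. Of all 13607 genes, 40.8% were called higher and 39.7% lower in this comparison. Since most genes were called, a call alone says little here, and it is in direction that the members differed from one another. The members' median log2 difference was 1.20, against 0.01 over all genes and 0.09 over 12 other measured YAP/TAZ targets. The members were chosen with earlier results of these data known, so their medians, here and below, are a description and not a test. Libraries labelled 4OH-TAM are described as lacking YAP and TAZ, and the members are known as genes that these factors activate. In this comparison 4OH-TAM exposure, CreERT2 activity and any loss of YAP and TAZ coincide and cannot be told apart.

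**Figure D2:**
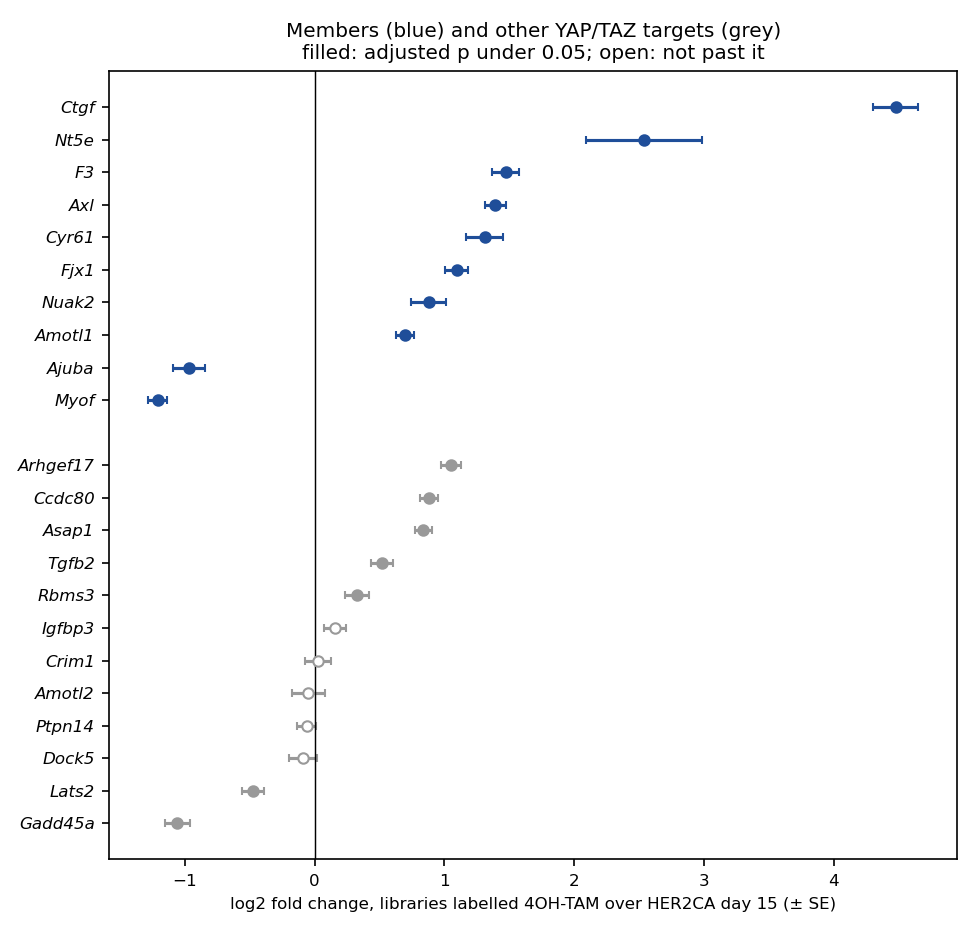
Log2 fold change (horizontal axis) of libraries labelled 4OH-TAM over HER2CA day 15 for the 10 members (blue rows) and 12 other YAP/TAZ targets (grey rows), with bars of 1 SE from the edgeR fit; filled points passed an adjusted p of 0.05. Ctgf lies at 4.48, and of the 10 members only Ajuba (−0.97) and Myof (−1.21) lie below 0.

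In HER2CA day 15 relative to controls, 8 members were lower, 1 (Myof) was higher and 1 (Ajuba) was not called, where 38.4% of all genes were called lower and 37.3% higher. The members' median was −0.90, against −0.02 over all genes. This comparison and the preceding one share the HER2CA day 15 libraries, so their opposite directions are not independent of each other. Under a test against a 1.5-fold change, 5 members were called lower, where 23.2% of all genes were.

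The comparison of libraries labelled 4OH-TAM with controls shares libraries with both of these. Here 4OH-TAM exposure, CreERT2 activity and any loss of YAP and TAZ coincide with doxycycline and HER2CA and cannot be told apart. In this comparison, 5 members were higher (Ctgf, F3, Axl, Fjx1 and Amotl1), 2 were lower (Cyr61 and Ajuba) and 3 were not called (Nt5e, Nuak2 and Myof). Of all genes, 31.0% were called higher and 28.2% lower. The median was 0.27, against 0.00 over all genes. Axl at 0.28 (adjusted p = 0.00762) and F3 at 0.32 (edgeR adjusted p = 0.0128) lost their calls without library A labelled 4OH-TAM (adjusted p = 0.0638 and 0.0991) or without control A (0.109 and 0.123). With no scaling factors only Ctgf was called higher, where 15.5% of all genes were. Under the 1.5-fold test 0 members were called higher, against 13.3% of all genes. Cyr61 and Ajuba stayed lower in both settings. The share of all genes called lower was 3.96% with no scaling factors and 4.51% under the 1.5-fold test.

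Gliomaspheres relative to controls had 2 members higher (Amotl1 and Fjx1), 5 lower (Ctgf, Cyr61, Nuak2, Ajuba and Myof) and 3 not called, where 32.5% of all genes were called higher and 32.0% lower. The median was −0.48, against −0.01 over all genes. Cyr61 fell (log2 −3.71, SE 0.16, edgeR adjusted p = 5.98e-11), as did Ajuba (log2 −1.88, adjusted p = 1.9e-08) and Myof (log2 −1.77, adjusted p = 8.48e-11), while Ctgf fell by 0.78 (adjusted p = 1.96e-04). Relative to HER2CA day 15, gliomaspheres had 6 members higher, 3 lower (Cyr61, Ajuba and Myof) and 1 not called (Nuak2), where 38.4% of all genes were called higher and 40.4% lower, with a median of 1.06 against −0.03 over all genes. Relative to libraries labelled 4OH-TAM, gliomaspheres had 1 member higher (Amotl1, by 0.46), 7 lower and 2 not called (Nt5e and Fjx1), where 31.3% of all genes were called higher and 29.7% lower. The median there was −0.58, against 0.02 over all genes. F3 (−0.25, adjusted p = 0.0463) was close to the threshold of 0.05 and lost its call without library A or B labelled 4OH-TAM (adjusted p = 0.23 and 0.062), without gliomaspheres A (0.172) and without control A or B (0.057 and 0.0567). Gliomaspheres differ from both day 15 groups in suspension culture, in time and in passage. From libraries labelled 4OH-TAM they differ also in 4OH-TAM exposure, CreERT2 activity and any loss of YAP and TAZ. Within each comparison these differences cannot be told apart.

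**Figure D3:**
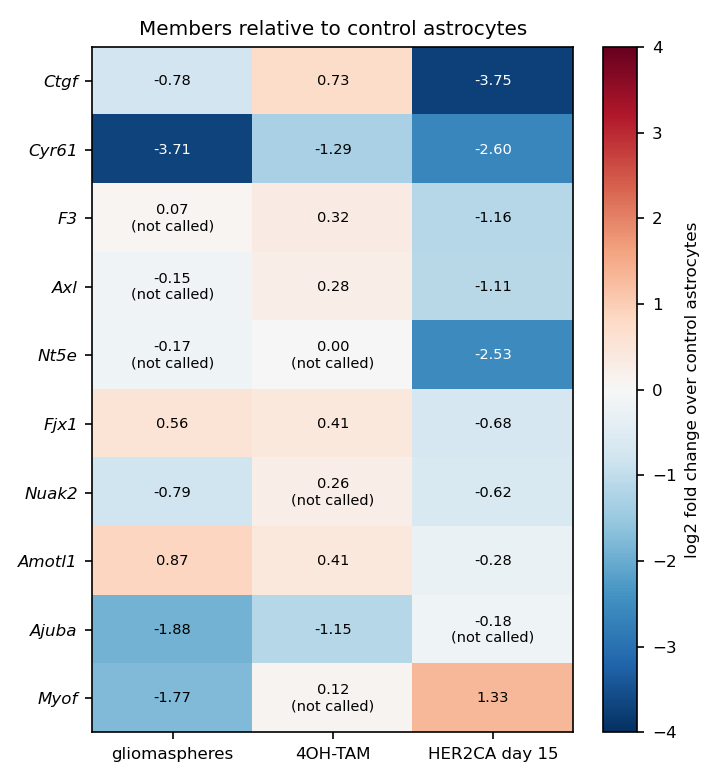
Log2 fold change over control astrocytes (colour and printed value) of each member (rows) in gliomaspheres, libraries labelled 4OH-TAM and HER2CA day 15 (columns), from the edgeR fit; the 3 columns share the same 2 control libraries. Cyr61 is below 0 in all 3 columns, at −3.71, −1.29 and −2.60, whereas Myof is 1.33 in HER2CA day 15.

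Ordered by level, neighbouring groups whose difference did not pass edgeR's test were gliomaspheres and controls for F3, Axl and Nt5e. So were libraries labelled 4OH-TAM and controls for Nt5e, Nuak2 and Myof, though for Nuak2 and Myof the libraries of these groups did not overlap. HER2CA day 15 and controls for Ajuba, gliomaspheres and HER2CA day 15 for Nuak2, and gliomaspheres and libraries labelled 4OH-TAM for Fjx1 (edgeR adjusted p = 0.141) did not pass either. The libraries of that Fjx1 pair, and those of gliomaspheres and controls for Nt5e, did not overlap. All neighbouring groups differed for Ctgf, Cyr61 and Amotl1. Per kilobase of exon, Cyr61 was the most abundant member in controls, at 135 CPM per kb, and, with 55.2 CPM per kb beside 53.8 for F3, in libraries labelled 4OH-TAM. Myof led in HER2CA day 15, at 33.2 CPM per kb, and F3 led in gliomaspheres, at 45.4 CPM per kb. Ctgf stayed below Cyr61 per kb in every group, at 3.26 against 10.5 CPM per kb in gliomaspheres and 0.401 against 22.1 CPM per kb in HER2CA day 15.

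Ratios of 2 members within a library do not depend on the scaling of that library. The ratio of Ctgf to Cyr61 counts was 0.431 and 0.447 in gliomaspheres, 0.226 and 0.241 in libraries labelled 4OH-TAM, 0.0302 and 0.0228 in HER2CA day 15, with 0.0604 and 0.0542 in controls. No groups overlapped, although both genes serve as readouts of the same factors. The ratio of Ctgf to Myof was 0.168 and 0.218 in gliomaspheres, 0.148 and 0.140 in libraries labelled 4OH-TAM, 0.00244 and 0.00308 in HER2CA day 15, with 0.0980 and 0.0892 in controls. The ratio of F3 to Ajuba was 8.00 and 7.60 in gliomaspheres, 5.89 and 5.35 in libraries labelled 4OH-TAM, 1.07 and 1.01 in HER2CA day 15, with 1.87 and 2.21 in controls. Axl to Myof was lowest in HER2CA day 15 too, at 0.134 and 0.156, against 0.707 and 0.877 in controls. In all 4 ratios HER2CA day 15 was the lowest group and gliomaspheres the highest. The numerators (Ctgf, F3 and Axl) were members lowest in HER2CA day 15, and the denominators (Cyr61, Ajuba and Myof) were members lowest in gliomaspheres. The shared order thus follows largely from the choice of pairs, which also reuse Ctgf and Myof, and is not 4 separate results.

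**Figure D4:**
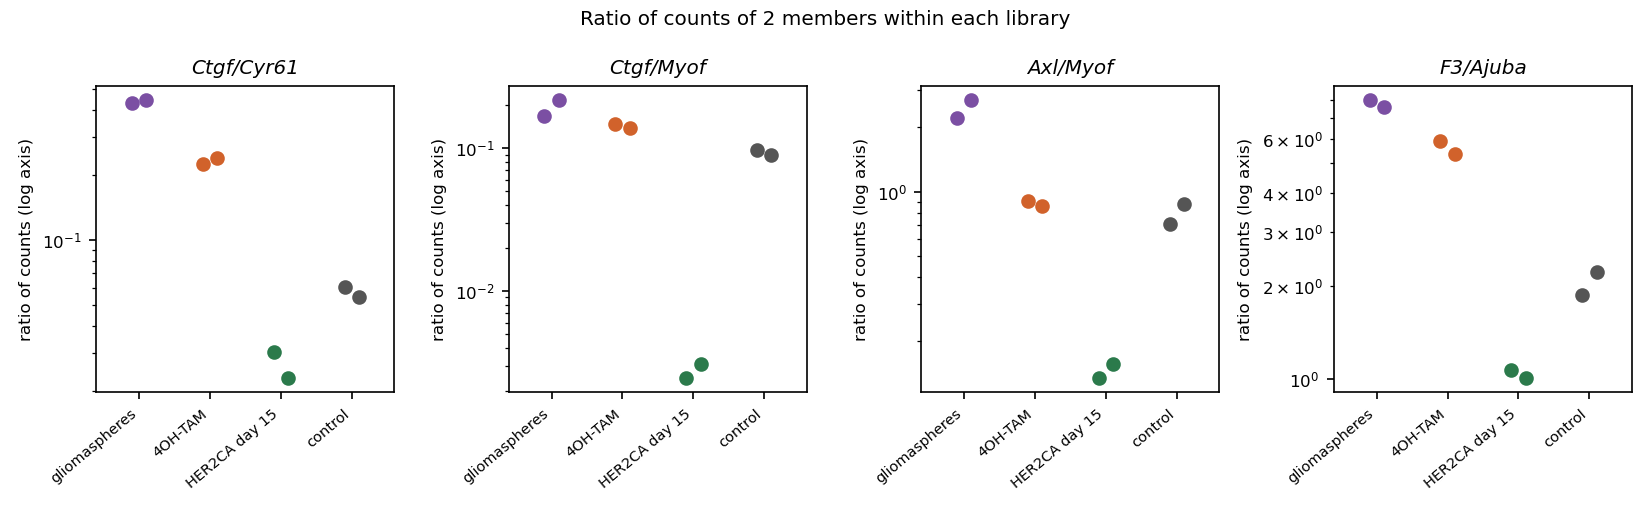
Ratio of the counts of 2 members within each library (vertical axis, log scale) by group (horizontal axis); each point is a library. HER2CA day 15 is lowest in all 4 panels, and Ctgf to Cyr61 is 0.0302 and 0.0228 there.

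Relatives and partners of the members gave a mixed picture. Of the CCN family, 5 of 6 genes were measured, and 4 rose in libraries labelled 4OH-TAM relative to HER2CA day 15. Wisp2, a CCN protein without the C-terminal domain, had 15.5 and 14.2 CPM in libraries labelled 4OH-TAM, against 0.321 and 0.379 CPM in HER2CA day 15, a difference of 5.37 (edgeR adjusted p = 2.3e-11). Wisp1 rose by 2.91 (adjusted p = 4.0e-08), and Nov, at 0.17, was not called. In gliomaspheres Nov had 0.713 and 1.11 CPM, against 17.9 and 16.6 CPM in controls.

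Ligands of the TAM receptors were also higher in libraries labelled 4OH-TAM. Gas6, the ligand of Axl, had 131 and 134 CPM there, against 17.7 and 16.9 CPM in HER2CA day 15 (log2 2.94), and Pros1, protein S, a ligand of Tyro3 and Mertk, differed by 1.91. Of the sister receptors, Mertk rose by 0.57 and Tyro3 fell by 0.48, a call lost with no scaling factors (−0.36, adjusted p = 0.321). The ectonucleotidases Entpd1, which supplies AMP to CD73, and Entpd2 were higher by 2.57 and 2.87, beside 2.54 for Nt5e. Nuak1 was higher by 2.16, Amot by 1.21 and Tfpi, the inhibitor of the tissue factor pathway, by 0.70, the last a call lost with no scaling factors (adjusted p = 0.0521), while Amotl2 was not called (−0.05).

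Both members that fell have relatives that were measured. Wtip, an Ajuba relative, had 7.66 and 8.00 CPM in libraries labelled 4OH-TAM, against 16.0 and 17.6 CPM in HER2CA day 15 (log2 −1.10), and Limd1 was not called (0.16). Dysferlin (Dysf), the one other ferlin of 6 listed in the table, fell by 0.27, a call lost with upper-quartile scaling (−0.06) and with no scaling factors (−0.15). Among partners of Fjx1, the cadherin Fat4 fell by 2.61 and Dchs1 rose by 1.94, while Fat1 was not called (−0.08).

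**Figure D5:**
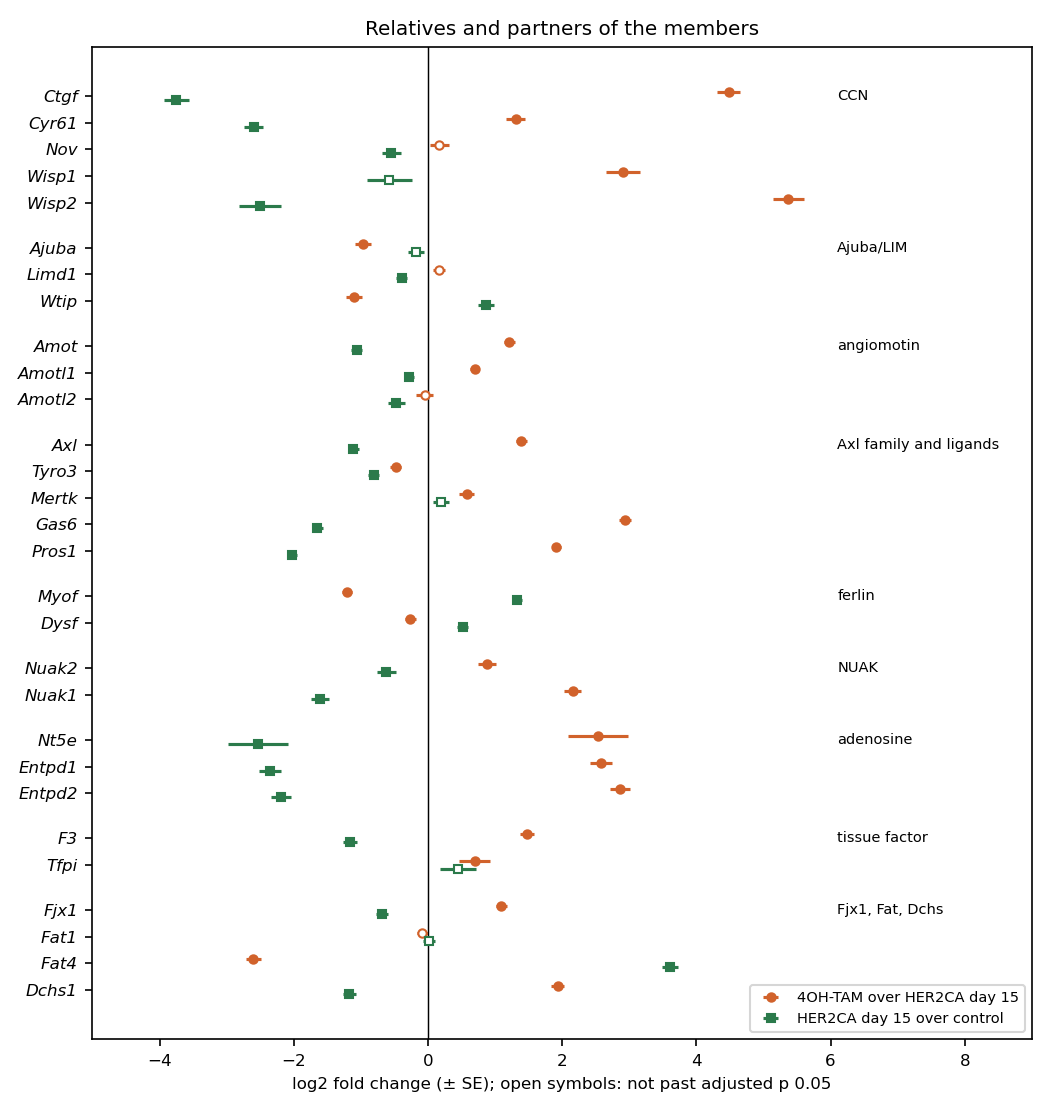
Log2 fold change (horizontal axis) of the members and their relatives or partners (rows, by family), for libraries labelled 4OH-TAM over HER2CA day 15 (circles) and for HER2CA day 15 over controls (squares), with bars of 1 SE from the edgeR fit and open symbols where adjusted p was not under 0.05. Wisp2 lies at 5.37 and Fat4 at −2.61 among the circles; the sets share the HER2CA day 15 libraries.

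The DNA-binding partners of YAP and TAZ moved unequally. Tead1 had 290.4 and 296 CPM in libraries labelled 4OH-TAM, against 124 and 124 CPM in HER2CA day 15 (log2 1.24, edgeR adjusted p = 5.2e-09), and 366 and 447 CPM in gliomaspheres, against 178 and 165 CPM in controls. Tead4 had 3.91 and 3.25 CPM in libraries labelled 4OH-TAM, against 11.1 and 14.5 CPM in HER2CA day 15 (log2 −1.84), and 1.05 and 0.911 CPM in gliomaspheres, against 8.79 and 9.27 CPM in controls. Tead1 was thus lowest, and Tead4 highest, in HER2CA day 15. Tead3 was higher by 0.76 and Tead2 was not called (−0.20) in libraries labelled 4OH-TAM relative to HER2CA day 15. Vgll3 and Vgll4, cofactors that bind TEADs in place of YAP and TAZ, had log2 differences of −0.66 and −0.43 there, calls lost with no scaling factors (adjusted p = 0.147 and 0.404).

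Of 14 further targets, from a signature known from the literature that also holds 8 of the members (all but Ajuba and Amotl1), 12 were measured, and Ankrd1 and Foxf2 were not listed in the table. In libraries labelled 4OH-TAM relative to HER2CA day 15, 5 rose (Arhgef17 by 1.05, Ccdc80 by 0.88, Asap1 by 0.84, Tgfb2 by 0.52 and Rbms3 by 0.32) and 2 fell (Gadd45a at −1.06 and Lats2 at −0.47). The other 5 were not called (Igfbp3 0.16, Crim1 0.03, Amotl2 −0.05, Ptpn14 −0.06 and Dock5 −0.09). Their median was 0.09, against 1.20 for the 10 members and 0.01 for all genes, where 40.8% of all genes were called higher and 39.7% lower. With no scaling factors 3 were called higher and 1 lower, where 31.9% of all genes were higher and 15.0% lower. In HER2CA day 15 relative to controls, 6 rose and 6 fell, where 37.3% of all genes were called higher and 38.4% lower. With no scaling factors 2 were called higher and 4 lower there, against 16.9% and 26.4% of all genes, and Lats2 also lost its call with upper-quartile scaling. Gadd45a, a stress-response gene, was higher there by 3.54 and Igfbp3, a binding protein for insulin-like growth factors, by 1.99. In gliomaspheres relative to libraries labelled 4OH-TAM, 9 of the 12 were lower and 3 were not called, where 29.7% of all genes were called lower. With no scaling factors 6 were called lower, against 25.4% of all genes.

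Markers of other cell types moved with these comparisons. In bulk RNA, fewer cells of a type and less RNA per cell cannot be told apart. Microglia and macrophage markers (11 of 12 listed, without Aif1) summed to 1129 and 1086 CPM in libraries labelled 4OH-TAM, against 209 and 221 CPM in HER2CA day 15, and 10 of the 11 rose. Their sum was 120 and 114 CPM in gliomaspheres, against 208 and 232 CPM in controls. Cd68, the marker that fell, was the largest part of the sum in HER2CA day 15 and in controls. It averaged 129 CPM in HER2CA day 15, 88 CPM in controls and 11.6 CPM in gliomaspheres. Cd68, Tyrobp and Ctss were lowest in gliomaspheres. Cx3cr1, P2ry12, Tmem119, Csf1r, C1qa, C1qb, C1qc and Lyz2 were lowest in HER2CA day 15, which the sum does not show. Fibroblast and mural markers (11 of 12, without Lum), from cells that express Ctgf and Cyr61 strongly, summed to 527 and 445 CPM in libraries labelled 4OH-TAM, against 429 and 430.2 CPM in HER2CA day 15, and 9 rose and 1 fell. They summed to 102 and 106 CPM in gliomaspheres, against 593 and 531 CPM in controls. By this sum gliomaspheres, the group lowest in Cyr61, were lowest, although Vtn, Myl9 and Rgs5 of the 11 were lowest in HER2CA day 15, as was Ctgf.

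Oligodendrocyte lineage markers (8 of 9, without Mog) summed to 3294 and 2983 CPM in gliomaspheres, 873 and 917 CPM in libraries labelled 4OH-TAM, 119 and 110 CPM in HER2CA day 15, with 468 and 505 CPM in controls. Neuronal markers (5 of 8, without Rbfox3, Snap25 and Syt1) summed to 687 and 667 CPM in gliomaspheres, 389 and 401 CPM in libraries labelled 4OH-TAM, 138 and 149 CPM in HER2CA day 15, with 342 and 346 CPM in controls. Endothelial markers (2 of 8, Kdr and Flt1, with Pecam1, Cdh5, Cldn5, Tek, Esam and Emcn not listed) summed to 38.4 and 32.0 CPM in gliomaspheres, 28.7 and 25.6 CPM in libraries labelled 4OH-TAM, 3.16 and 3.00 CPM in HER2CA day 15, with 12.4 and 11.9 CPM in controls. No listed marker was at 0 in both libraries of a group. HER2CA day 15, the group lowest in 6 members, was also lowest in the astrocyte, oligodendrocyte, neuronal and endothelial sums. Not every marker followed its sum. Of the neuronal markers, Map2, the most abundant, and Tubb3 were lowest in HER2CA day 15, but Nefl and Nefm were lowest in controls and Stmn2 in gliomaspheres. Of the astrocyte markers, Sox9 was lowest in controls. The part of these cell types in the members' differences was not tested.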

How the data were processed

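The authors deposited one table of whole-number read counts per gene symbol, not normalised, for 13607 genes in 8 libraries. Libraries were stranded polyA libraries, per the labels' protocols. FastQC, STAR 2.5.3a, featureCounts, mm10 and GRCm38 are named in the submitters' processing notes. The sources used here give neither the annotation behind the counting nor its strand setting, so reads of overlapping opposite-strand genes cannot be told apart. Each library held 15517708 to 28231426 counts.

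The counts went into edgeR 4.0.16 under R 4.3.3: TMM factors, filterByExpr (which kept all 13607 genes), 1 mean per group over all 8 libraries with 4 residual degrees of freedom, glmQLFTest, and p-values adjusted by Benjamini-Hochberg across the whole table, called under 0.05. Each of the 6 pairs of groups was compared. The SE of a log2 fold change is its size over the root of F. Levels in CPM use the TMM factors. The fit was tested on simulated data. Alternatives were other filters and scaling factors, DESeq2 1.42.0, the replicate block, testing against a 1.5-fold change, a fit of only the groups compared, and each library left out.

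All 10 members, the TEAD and VGLL genes and the measured relatives and other targets are named without selection, with values of those beyond the members mainly from the day 15 comparison; for Ctgf, Cyr61, Ajuba and Myof the rule adds the 3 genes most alike in profile. The members and lists were chosen with earlier results of these data known. Positions are from GENCODE M21 on GRCm38, with Ctgf and Cyr61 matched as Ccn2 and Ccn1 through RefSeq synonyms, and promoter sequences are from RefSeq on GRCm38.p6.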

Additional observations from a re-analysis of the deposited data

How the results depend on the processing

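Each member's difference in the 6 comparisons was recomputed under 18 alternatives. This gave 1034 values on the same side of the threshold, 35 that lost their call, 5 that gained one and 0 called values that changed direction. The 1034 include uncalled differences whose sign turned, such as F3 in gliomaspheres relative to controls (−0.27 to 0.14). In libraries labelled 4OH-TAM relative to HER2CA day 15, all 179 kept their call and direction (Nt5e was not tested under a minimum of 5 CPM in 2 libraries). Leaving out each library in turn gave 8 members higher and 2 lower each time. No pairing by the letters A and B was seen, as the deviations of same-lettered libraries correlated at −0.024 to 0.084 between groups. Such values cannot exclude shared preparations. With the replicate block that comparison again gave 8 members higher and 2 lower, and 5541 genes higher and 5407 lower over the whole table. No member's call changed with the block in any comparison. Under the test against a 1.5-fold change, 5 members were lower in HER2CA day 15 than in controls. In libraries labelled 4OH-TAM relative to controls, 2 were then called, 0 of them higher, where 13.3% of all genes were higher and 4.51% lower. In gliomaspheres relative to controls, 4 were called, 1 higher and 3 lower, where 1897 of 13607 genes were higher and 1496 lower. Relative to libraries labelled 4OH-TAM, gliomaspheres had 4 called, 0 higher and 4 lower, where 9.53% of all genes were higher and 12.7% lower. With no scaling factors, 3 members were called and 1 was higher in libraries labelled 4OH-TAM relative to controls. There 15.5% of all genes were higher and 3.96% lower. With those settings 0 members were higher in gliomaspheres relative to controls (10.2% of all genes) or to libraries labelled 4OH-TAM (5.50% of all genes). Leaving out each library gave 3 to 5 members higher in libraries labelled 4OH-TAM relative to controls, with 3 without library A labelled 4OH-TAM and without control A. Without gliomaspheres B, Axl was lower in gliomaspheres than in controls (−0.24, adjusted p = 0.0236), and without HER2CA day 15 A, Nuak2 was lower in gliomaspheres than in HER2CA day 15 (−0.36, adjusted p = 0.0433); in a fit of only the groups compared, Nuak2 was higher in libraries labelled 4OH-TAM than in controls (adjusted p = 0.0348). Among all listed genes, the called differences that turned round with no scaling factors were all in gliomaspheres. Relative to libraries labelled 4OH-TAM they were Yap1 (−0.0583), Amot (−0.08), Aldh1l1 (−0.13) and Cspg4 (−0.02). Relative to controls they were Asap1 (−0.0793), Aqp4 (−0.08) and Gja1 (−0.06). Gliomaspheres B had a TMM factor of 0.637, against 1.03 to 1.12 in the other libraries. With Rn45s and Lars2 removed and TMM factors kept, no called difference of a listed gene turned round. Entpd1 in gliomaspheres relative to controls (0.31) and Aldh1l1 relative to libraries labelled 4OH-TAM (0.27) then lost their calls. The cause of the reversals was not tested.

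Scaling moved the balance over all genes. Upper-quartile factors gave a median of 0.22 for libraries labelled 4OH-TAM relative to HER2CA day 15, with 61.5% of called genes higher against 50.7% with TMM, and a median of −0.17 for HER2CA day 15 relative to controls. With no scaling factors the share of called genes that were higher was 68.0% in the first of these comparisons, 39.1% against 49.3% with TMM in the second, 79.7% against 52.4% in libraries labelled 4OH-TAM relative to controls, 29.8% against 50.4% in gliomaspheres relative to controls, and 17.8% against 51.3% in gliomaspheres relative to libraries labelled 4OH-TAM; the median of all genes was then 0.13 in the first, and in gliomaspheres −0.33 relative to controls, −0.30 relative to HER2CA day 15 and −0.38 relative to libraries labelled 4OH-TAM. With 2 libraries a group, and 2 and 6 counts of Nt5e in HER2CA day 15, small differences and the level of Nt5e are limited by depth.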

Other observations

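The genes whose profiles lay closest to 4 members over the 8 libraries are given as a description, by the root mean square (RMS) difference of log2(CPM + 1) after centring, among genes averaging at least 5 CPM. Closest to Ctgf were Rab7b, a small GTPase of late endosomes (RMS 0.208), Pcp4l1 (0.253) and Pmp22, a peripheral myelin protein (0.259). Rab7b averaged 14.2 CPM in gliomaspheres, 33.0 CPM in libraries labelled 4OH-TAM, 1.88 CPM in HER2CA day 15 and 24.2 CPM in controls. Closest to Ajuba were Eno2, a glycolytic enolase (0.106), Pfkfb3, which makes an activator of glycolysis (0.147), and Hcfc1r1 (0.169). Pfkfb3 averaged 92.8 CPM in gliomaspheres, 160 CPM in libraries labelled 4OH-TAM, 329 CPM in HER2CA day 15 and 386 CPM in controls.

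Closest to Myof were the syntaxin Stx3 (0.176), Wdr72 (0.186) and Tgif1, a repressor in TGF-beta signalling (0.237). Tgif1 averaged 27.9 CPM in gliomaspheres, 91.6 CPM in libraries labelled 4OH-TAM, 164 CPM in HER2CA day 15 and 74.6 CPM in controls. Cyr61 had no profile as close, with Mbp, a myelin protein, at 0.482 and Adamtsl4 and Fam114a1 both at 0.492. With a pseudocount of 0.25 in place of 1, the 3 closest genes shared 1 gene with those named for Ctgf and for Myof, and 2 for Cyr61 and for Ajuba.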
